A study of Mus musculus with 27 samples.

Results

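Hearts under pressure overload were compared with sham-operated hearts 11 days after surgery. The comparison takes 6 of the 27 arrays of the series: 3 from hearts with transverse aortic constriction (TAC) and 3 from sham-operated hearts. Both groups received vehicle (dmso), with injections begun 1.5 days after the operation, so neither carries the drug JQ1 that other arrays of the series test. Both groups were made up of C57Bl/6J males from shared litters, 10 to 12 weeks old per the labels. For TAC the aortic arch was tied between the carotid arteries with a 7.0 silk suture against a 27-gauge needle, which gave a peak pressure gradient of about 50 mmHg. RNA came from a piece of 10 to 20 mg of heart, and the labels do not say from which chamber or wall. Nothing beyond the littermate statement says that the arrays are separate animals. The p-values therefore measure the spread between samples only, and that spread was estimated over all 27 arrays.

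A narrowed aorta raises the pressure that the left ventricle has to pump against. Heart muscle cells answer such a load with growth and with a return to gene products of the fetal heart, such as the natriuretic peptides, the slow myosin heavy chain and skeletal actin. Fibroblasts multiply and lay down collagen, and macrophages gather. The adult heart burns mainly fatty acids, and in mice with long-lasting overload the genes of fat oxidation are known to decline. Day 11 lies between the early response to the operation and the later remodelled state, and the arrays of days 3 and 28 are used below to place it.

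The values are log2 signals, so that a difference of 1 is a doubling. Each gene was represented by 1 probe set, which gave 19937 genes. Differences are TAC minus sham with the standard error (SE) of the moderated fit and n = 3 arrays per group, and a gene was called when its Benjamini-Hochberg adjusted p in limma was under 0.05. Of all genes 15.5% were called, 7.80% higher in TAC and 7.73% lower, in all 1555 genes that rose and 1542 that fell. Of these 120 rose and 38 fell by at least 2-fold, and 9 rose and 0 fell by at least 4-fold. The 3 TAC arrays lay wholly above the 3 sham arrays for 16.8% of genes and wholly below them for 16.6%. The median difference over all genes was 0.008. Between arrays of a group the correlation over genes was 0.9941 to 0.9964, and across groups it was 0.9865 to 0.9901. Array medians over all probe sets ranged from 6.954 to 7.043, and signals of about 4 to 6 may be background, since no detection calls were used here.

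Ventricular muscle markers were high on every array. Sarcolipin, 1 of 8 atrial markers, was near background. Levels of the other atrial markers are not given here, so these values do not place the tissue in a chamber. Of 16 ventricular cardiomyocyte markers 0 rose and 2 fell, with mean levels over the list of 12.98 to 13.01 on the TAC arrays, against 13.04 to 13.06 on the sham arrays. The 2 that fell were the cytochrome oxidase subunit gene Cox6a2 (−0.26 ± 0.06) and Ryr2 (−0.29 ± 0.07), the calcium release channel. The troponin gene Tnni3 (−0.12 ± 0.05) and the light chain gene Myl2 (−0.10 ± 0.06) were not called. Of 8 atrial markers 1 rose and 1 fell, with differences from −0.73 to 0.81, and the rise was lost without sham replicate 3. Sarcolipin (Sln) had 5.72, 5.80 and 5.48 on the TAC arrays, against 5.63, 5.73 and 5.51 on the sham arrays. None of 15 skeletal muscle, lung and thymus markers was called. In such bulk tissue, fewer cells of a type and less RNA per cell cannot be told apart.

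Most of the 12 genes that moved furthest upward code for the matrix around the cells. In order of size they were periostin (Postn, 3.35 ± 0.24), the protease inhibitor Timp1 (3.30 ± 0.36), thrombospondin 4 (Thbs4, 2.83 ± 0.35), skeletal actin (Acta1), Col8a1 (2.50 ± 0.16), Cilp (2.49 ± 0.28), the collagen crosslinking enzyme Lox, Mfap5, Mfap4, Vcan, Nmrk2 and tenascin C (Tnc). Mfap5 and Mfap4 are microfibril proteins and Vcan is a large proteoglycan. Mfap5 had 11.62, 11.52 and 11.73 on the TAC arrays, against 9.14, 9.43 and 9.43 on the sham arrays, a rise of 2.29 ± 0.18 or 4.88-fold (adjusted p = 2.14e-08). Lox had 9.29, 8.51 and 9.0 on the TAC arrays and 6.88, 6.42 and 6.51 on the sham arrays (5.03-fold, adjusted p = 0.000141). For both genes the groups lie far apart, although the TAC arrays of Lox spread more widely. The TAC arrays of Tnc spread wider than those of Lox, with 8.27, 7.38 and 8.50, against 6.31, 6.23 and 5.86 on the sham arrays (1.92 ± 0.37, adjusted p = 0.000663). The lowest TAC array of Tnc is above every sham array, but only genes without overlap could enter these 12. The only gene among the 12 largest rises from energy metabolism was Nmrk2, a kinase that makes NAD from nicotinamide riboside, with 9.75, 9.55 and 10.24 on the TAC arrays, against 8.01, 7.96 and 7.72 on the sham arrays (3.87-fold). Nampt, the enzyme of the main salvage route to NAD, moved the other way. It is named after its values were seen, which were 10.39, 10.51 and 10.31 on the TAC arrays, against 11.29, 11.13 and 11.28 on the sham arrays (−0.83 ± 0.13, adjusted p = 5.74e-05).

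The furthest falls were smaller and came from several kinds of gene. In order of size they were the carboxylesterase Ces1d (−1.94 ± 0.25), the opioid peptide precursor Penk (−1.89 ± 0.22), the methyltransferase Inmt (−1.85 ± 0.43), the galectin Lgals4 (−1.72 ± 0.22), Retnla, Phkg1, Angpt1, A530016L24Rik (−1.54 ± 0.20), Pla2g5, Mylk4, Rbfox1 and Mrgprh. Retnla and Phkg1 are given with their lists below. Angpt1, the ligand that keeps the endothelial receptor Tek active, had 7.27, 6.98 and 7.02 on the TAC arrays, against 8.70, 8.52 and 8.79 on the sham arrays (−1.58 ± 0.18, adjusted p = 3.19e-06). Rbfox1, which controls splicing in muscle and nerve, had 8.28, 8.25 and 8.26 on the TAC arrays and 9.70, 9.56 and 9.69 on the sham arrays (−1.39 ± 0.21). In both genes each TAC array is more than 1 log2 unit below each sham array. Pla2g5, a secreted phospholipase, fell by 1.47 on the log2 scale and the receptor gene Mrgprh by 1.32. Mylk4, a kinase of the myosin light chain kinase family, had 8.91, 9.80 and 9.0 on the TAC arrays, against 10.80, 10.57 and 10.70 on the sham arrays (−1.45 ± 0.26). Here TAC replicate 2 stands apart from the other TAC arrays and nearer to sham.

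**Figure D1:**
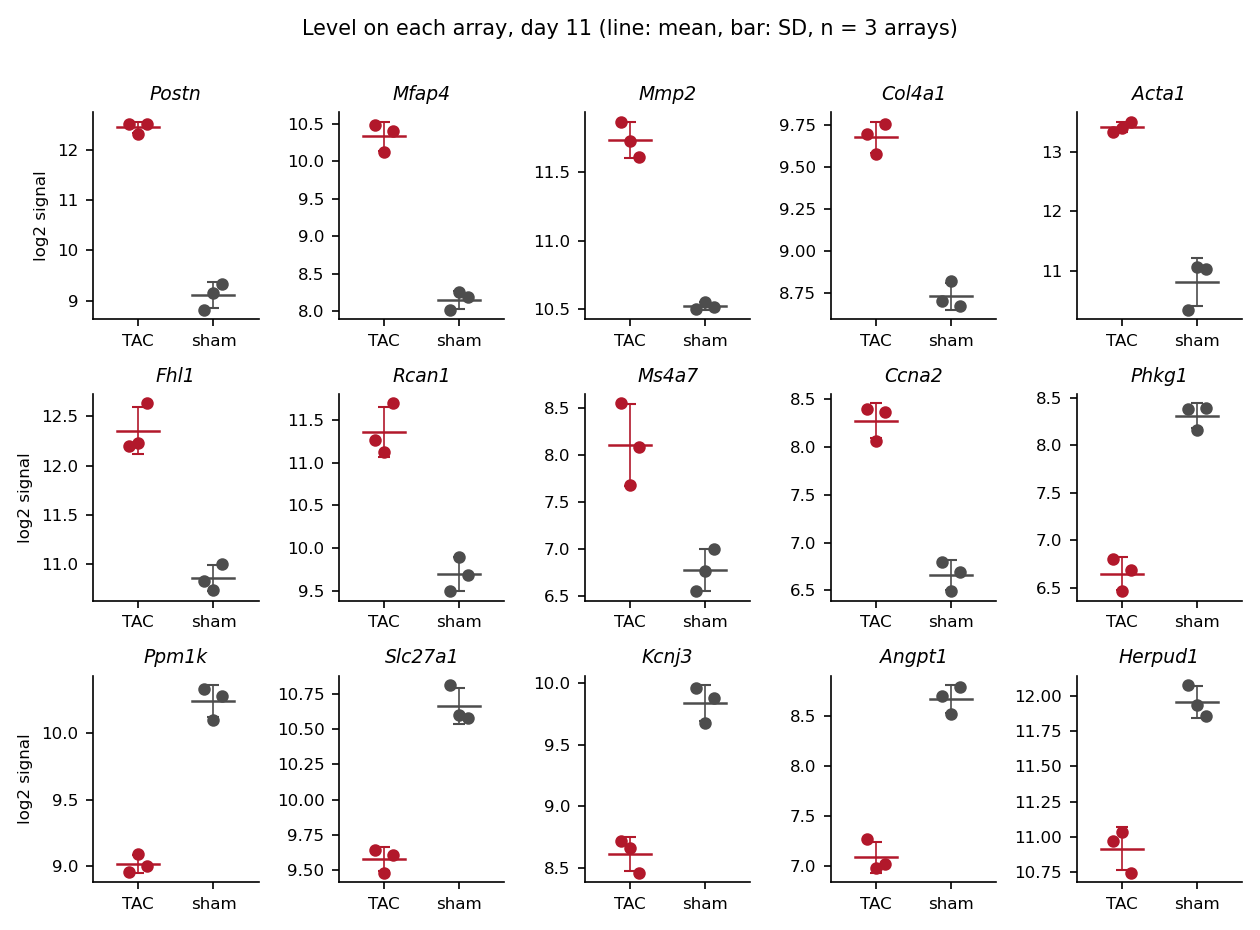
Log2 signal (vertical axis, scaled for each gene) of 15 genes on each day 11 array, TAC on the left and sham on the right, with group mean and SD (n = 3). All were picked among called genes, and the groups do not overlap for any of them, as for 3075 of the 3097 called genes. The first 9 panels show genes that rose and the last 6 show genes that fell.

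Collagen genes rose in some classes and not in others. Of 43 chains 15 rose and 0 fell, against 7.80% of all genes that rose, and the median was 0.15. The fibrillar chains of the stiff scar collagens rose in 5 of 11 genes. Col3a1 had 9.88, 9.65 and 9.79 on the TAC arrays, against 8.25, 8.32 and 8.10 on the sham arrays, and Col1a2 had 9.97, 9.78 and 9.83 on the TAC arrays, against 8.45, 8.57 and 8.45 on the sham arrays. That is 2.93-fold for Col3a1 (adjusted p = 3.58e-06) and 2.58-fold for Col1a2 (adjusted p = 2.68e-07). Basement membrane chains, which form the sheet on which muscle and endothelial cells sit, rose in 4 of 8 genes. Col4a1 had 9.70, 9.58 and 9.76 on the TAC arrays, against 8.70, 8.82 and 8.67 on the sham arrays (0.95 ± 0.08), its partner chain Col4a2 rose by 0.90 ± 0.09, and Col15a1 by 1.36 ± 0.20. Col14a1 (1.54 ± 0.22) and Col12a1 (1.33 ± 0.26), which coat fibrils, rose too, and the 7 transmembrane and other chains gave 0 calls.

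Most of the enzymes that finish collagen rose. Of 22 collagen enzymes 16 rose and 1 fell, with a median of 0.40. All 4 crosslinking enzymes rose, among them Loxl1, with 9.96, 9.88 and 10.02 on the TAC arrays, against 8.73, 8.94 and 8.84 on the sham arrays (1.12 ± 0.10, adjusted p = 8.75e-08). Of the 11 genes for hydroxylation, which stabilises the triple helix, 8 rose, and without TAC replicate 1 this was 5. P3h2, a prolyl hydroxylase, rose by 0.92 ± 0.12, and the propeptide enzyme Bmp1 by 0.58 ± 0.07. Of 26 matricellular genes, whose secreted products signal to cells, 17 rose and 0 fell, with the median at 0.73. Sparc, a collagen-binding protein, showed tight groups, with 12.89, 12.76 and 12.80 on the TAC arrays, against 11.65, 11.87 and 11.71 on the sham arrays (1.07 ± 0.08, adjusted p = 9.08e-09). Fibronectin (Fn1) rose by 1.61 ± 0.23, Thbs1 by 1.79 ± 0.26 and Ccn5 by 0.80 ± 0.12.

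Elastic fibre genes moved in both directions. Of 18, 12 rose and 3 fell. Mfap4, which binds elastin and collagen, had 10.49, 10.12 and 10.40 on the TAC arrays, against 8.02, 8.25 and 8.19 on the sham arrays (2.18 ± 0.23). Ltbp2 rose by 1.28 ± 0.24 while Ltbp1, which tethers latent TGF-beta to the matrix, fell (−0.40 ± 0.09). Among the fibulins, Fbln2 rose, with 10.55, 10.67 and 10.73 on the TAC arrays, against 9.51, 9.67 and 9.61 on the sham arrays (1.05 ± 0.08). Efemp1, also a fibulin, fell, with 6.91, 7.15 and 7.15 on the TAC arrays, against 8.29, 8.01 and 8.46 on the sham arrays (−1.18 ± 0.23, adjusted p = 0.001). Proteoglycans rose in 7 of 24 genes, led by Vcan (1.99 ± 0.17), Aspn (1.59 ± 0.24), Lum (1.37 ± 0.21) and Bgn (1.05 ± 0.08), all of them collagen-binding or space-filling matrix components.

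Enzymes that cut the matrix, and their inhibitors, rose in 17 of 33 genes, with none lower and a median of 0.37. The gelatinase Mmp2 had 11.87, 11.73 and 11.61 on the TAC arrays, against 10.50, 10.55 and 10.51 on the sham arrays (1.22 ± 0.16), and its activator Mmp14 rose by 0.87 ± 0.13. The inhibitors Timp1 and Timp2 (0.51 ± 0.07) rose as well. Of 12 ADAM and ADAMTS genes 9 rose, among them Adamtsl2, a family member without protease activity (1.24 ± 0.12), and Adamts12 (0.76 ± 0.09). Serpina3n, a secreted serine protease inhibitor, had 11.20, 10.66 and 11.27 on the TAC arrays, against 9.24, 9.0 and 9.37 on the sham arrays (1.84 ± 0.35).

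TGF-beta is the main signal that turns fibroblasts into matrix-producing cells. In its pathway 11 of 35 genes rose and 1 fell, with a median of 0.10. The ligands Tgfb1 (0.54 ± 0.09), Tgfb2 (1.39 ± 0.16) and Tgfb3 (0.98 ± 0.17) rose, as did the receptor Tgfbr2 (0.47 ± 0.07), and the co-receptor Tgfbr3 fell (−0.46 ± 0.11). Fstl1, a secreted follistatin-like protein, had 11.89, 12.00 and 11.97 on the TAC arrays, against 9.87, 10.20 and 10.07 on the sham arrays (1.91 ± 0.13, adjusted p = 2e-09). Of 30 integrin and adhesion genes 12 rose and 1 fell. Itgbl1, a secreted integrin-like protein, rose by 1.68 ± 0.21, Itga9 by 1.13 ± 0.14 and Itga6, a laminin receptor subunit, by 0.66 ± 0.12. Among growth factors, Igf1 (1.27 ± 0.17) and Hbegf (1.14 ± 0.16) rose, as did the secreted Wnt-binding genes Frzb (1.50 ± 0.18) and Sfrp1 (1.21 ± 0.19), while the neuregulin receptor Erbb4 fell (−0.74 ± 0.11).

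**Figure D2:**
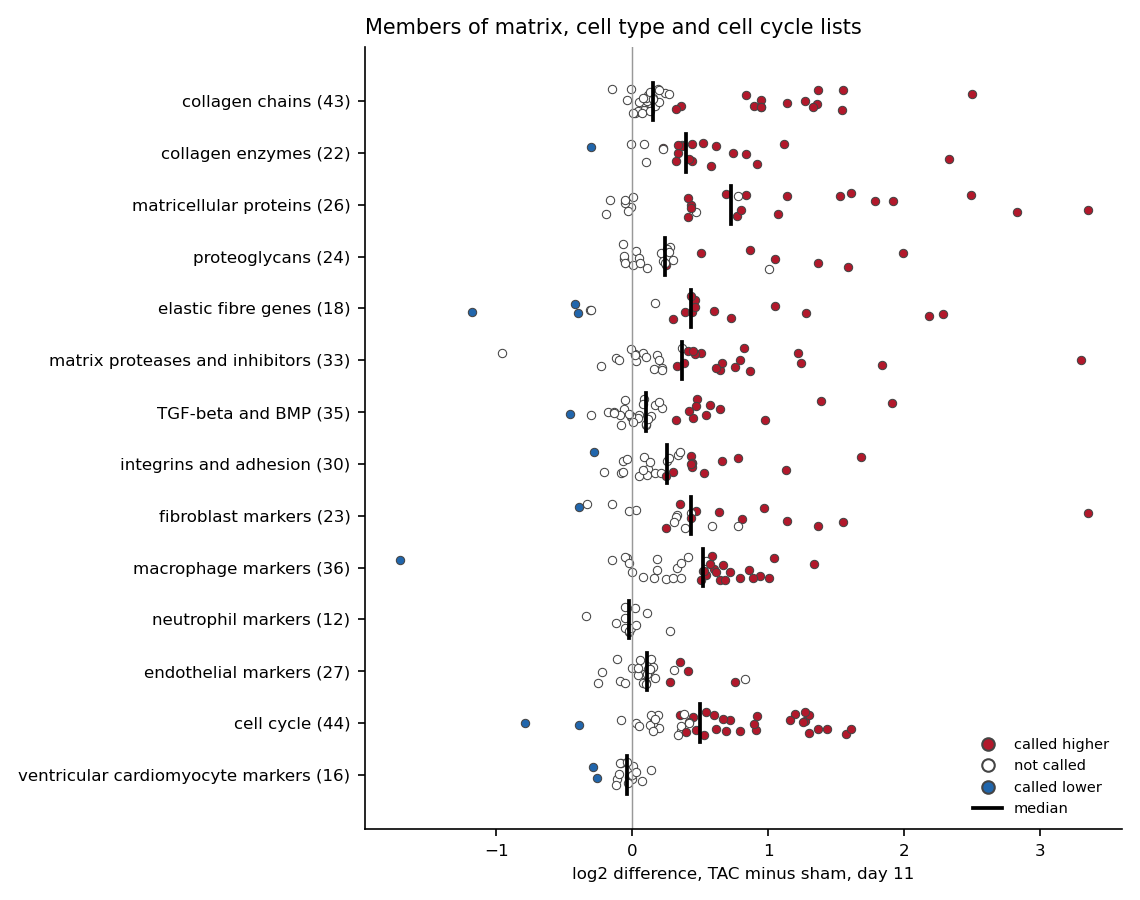
Log2 difference, TAC minus sham at day 11 (horizontal axis), of each member of 14 gene lists; the number of members is in brackets, filled points were called and bars are list medians. Matricellular genes have the highest median of these lists (0.73) and the neutrophil and ventricular cardiomyocyte medians lie at or below 0.

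Of 23 fibroblast markers 11 rose and 1 fell, a call lost without any one array other than TAC replicate 2, and the mean over the list was 9.19 to 9.35 on the TAC arrays, against 8.64 to 8.71 on the sham arrays. Meox1, a transcription factor of activated fibroblasts, had 9.16, 9.02 and 9.57 on the TAC arrays, against 7.58, 7.82 and 7.71 on the sham arrays (1.55 ± 0.21, adjusted p = 1.38e-05). Genes of resting fibroblasts rose too, with Pi16 at 0.97 ± 0.12 and Cd34, also present on endothelial cells, at 0.81 ± 0.10. The list shares Postn and Lum with the matrix lists above, so these counts are not independent of them. The gene of smooth muscle actin, Acta2, belongs to the activated markers and was not called (0.03 ± 0.19; named after its values were seen).

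Macrophage markers rose in 19 of 36 genes and 1 fell. The mean over the list was 8.15 to 8.29 on the TAC arrays, against 7.78 to 7.79 on the sham arrays, with no overlap. Of 16 markers found on most macrophages 13 rose. Mpeg1, a pore-forming protein of phagocytes, had 8.02, 7.76 and 7.86 on the TAC arrays, against 6.77, 6.92 and 6.82 on the sham arrays (1.04 ± 0.17, adjusted p = 0.000158). Lyz2, lysozyme, rose by 0.79 ± 0.11, and C1qb, a chain of the complement starter C1q, by 0.86 ± 0.12. Ms4a7 rose by 1.34 ± 0.23, and the gene that fell was Retnla, a product of alternatively activated macrophages. It had 4.52, 4.70 and 4.32 on the TAC arrays, against 6.58, 5.80 and 6.30 on the sham arrays (−1.71 ± 0.25, adjusted p = 3.94e-05). Lack of overlap was a condition for the largest falls, of which Retnla is one, and all 6 levels lie in or near the range that may be background.

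Other blood cells gave little. Of 12 neutrophil markers 0 were called, with list means of 6.09 to 6.40 on the TAC arrays, against 6.23 to 6.31 on the sham arrays. None of 9 MHC class II genes was called, and 2 of 23 lymphocyte and mast cell markers rose (1 without TAC replicate 2 or sham replicate 3). The mast cell receptor Kit had 7.65, 7.61 and 7.44 on the TAC arrays, against 7.08, 7.16 and 7.20 on the sham arrays (0.42 ± 0.08, adjusted p = 0.00102). Interferon-stimulated genes rose in 5 of 19, with a median of 0.40, but leaving out single arrays left 0 or 1 of these calls, with 0 without TAC replicate 2 or sham replicate 2. Of 32 chemokine genes 9 rose and 3 fell. The rises numbered 4 without sham replicate 3 and 5 without TAC replicate 2, and the falls 1 without TAC replicate 2 or sham replicate 1. The eosinophil attractant Ccl11 fell (−0.75 ± 0.15) and the T-cell attractant Cxcl10 rose (0.57 ± 0.12). Il15, a cytokine that muscle makes, had 7.83, 7.65 and 7.87 on the TAC arrays, against 8.98, 8.76 and 9.11 on the sham arrays (−1.17 ± 0.11, adjusted p = 1.2e-07), the smallest p among the 36 cytokine genes.

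Vessel markers had small median changes, although some members rose. Of 27 endothelial markers 4 rose and 0 fell, against 7.80% of all genes that rose, with a median of 0.11. The junction gene Cdh5 was one of the 4 (0.41 ± 0.08). Of 19 smooth muscle and pericyte markers 6 rose, against the same 7.80%. Mcam rose by 0.75 ± 0.10, the list median was 0.04, and 1 gene fell. That gene is Abcc9 (−0.55 ± 0.11), which muscle cells also use as a subunit of their ATP-sensitive potassium channel.

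Genes of dividing cells rose almost as a block. Of 24 genes of mitosis 22 rose, 1 fell and 1 was not called, with a median of 0.92, against 3 of 12 replication genes. Ccna2, the cyclin of S phase and early mitosis, had 8.39, 8.06 and 8.36 on the TAC arrays, against 6.80, 6.49 and 6.69 on the sham arrays (3.05-fold, adjusted p = 0.000145). Mki67, a protein of all cycling cells, rose by 1.57 ± 0.22, the kinase Cdk1 by 1.30 ± 0.20 and the contractile ring protein Anln by 1.37 ± 0.20. Anln is dim on the sham arrays, at 5.95, 5.71 and 5.99, so its fold may be understated. The 1 that fell was Cenpf, a large protein of the kinetochore, and the 1 not called was Ndc80 (0.42). Cenpf had 6.94, 6.89 and 6.62 on the TAC arrays, against 7.92, 7.31 and 7.61 on the sham arrays (−0.79 ± 0.19, adjusted p = 0.0048). Both genes are named after their values were seen. Cdkn1b, an inhibitor of cell cycle kinases, fell as well (−0.39 ± 0.09; named after its values were seen). Fibroblast and macrophage marker means were higher on the same TAC arrays, and which cells were dividing was not tested.

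The fetal programme of the muscle cell rose in the natriuretic hormones and in some sarcomere parts. Nppa had 13.51, 13.44 and 13.56 on the TAC arrays, against 11.59, 11.89 and 11.59 on the sham arrays (1.82 ± 0.18), and Nppb had 12.62, 12.49 and 13.12 on the TAC arrays, against 10.76, 11.50 and 11.50 on the sham arrays (1.49 ± 0.32). Nppc, the third hormone gene, was not called (−0.01). Of 3 genes that process these hormones 2 fell, and Furin was not called (−0.20). Corin, the protease that cuts the Nppa product into active hormone, fell to 11.17, 11.32 and 11.16 on the TAC arrays, against 11.95, 11.79 and 11.74 on the sham arrays (−0.61 ± 0.11, adjusted p = 0.000306). Mme (neprilysin), which degrades natriuretic peptides, fell to 7.16, 6.76 and 6.91 on the TAC arrays, against 7.60, 7.50 and 7.76 on the sham arrays (−0.68 ± 0.12, adjusted p = 0.00049). The receptors Npr1, Npr2 and Npr3 were not called (differences of 0.04, −0.06 and −0.06).

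Sarcomere genes changed by isoform. Of 29 genes 7 rose and 3 fell, with a median of 0.04. Myh7, slow myosin, rose by 1.81 ± 0.22, and Myh6, the fast myosin of the adult mouse heart, was not called, with 13.35, 13.39 and 13.35 on the TAC arrays, against 13.47, 13.50 and 13.46 on the sham arrays (−0.11 ± 0.05, adjusted p = 0.139). A related myosin gene, Myh7b, fell (−0.56 ± 0.16, adjusted p = 0.0215; named after its values were seen), a call lost without any one array other than TAC replicate 2 (adjusted p up to 0.0849). Mybpc2, the myosin-binding protein C of fast skeletal muscle, had 9.54, 9.75 and 9.62 on the TAC arrays, against 7.98, 8.10 and 8.38 on the sham arrays (1.48 ± 0.18). The tropomyosins Tpm2 (0.63 ± 0.13), Tpm3 (0.49 ± 0.10) and Tpm4 (0.74 ± 0.13) rose. Mylk3, the kinase that phosphorylates the cardiac light chain, fell, with 10.46, 10.49 and 10.33 on the TAC arrays, against 11.43, 11.29 and 11.32 on the sham arrays (−0.91 ± 0.09, adjusted p = 1.83e-07).

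Of the 2 actin genes of heart muscle 1 was called. Acta1, skeletal actin, had 13.34, 13.40 and 13.51 on the TAC arrays, against 10.34, 11.06 and 11.03 on the sham arrays (2.61 ± 0.29), and Actc1, cardiac actin, had 13.92, 13.91 and 13.94 on the TAC arrays, against 13.90, 13.91 and 13.93 on the sham arrays (0.01 ± 0.05, adjusted p = 0.933; named after its values were seen). The Actc1 levels lie near 14.21, the highest signal of any probe set, so a rise of Actc1 might not show on these arrays. Both promoters are shown because both hold a CArG box, the binding motif of serum response factor, and of the 2 only Acta1 was called. The stretches run from 250 bases before to 50 bases after the start of the gene in RefSeq's GRCm38.p6 annotation, 5′ to 3′ on the gene's strand, with the CArG box in capitals. Acta1 lies at chr8:123894726-123895025 on the minus strand, with the motif starting 73 bases before the gene's start, and Actc1 at chr2:114052826-114053125 on the minus strand, with the motif 47 bases before.
Acta1: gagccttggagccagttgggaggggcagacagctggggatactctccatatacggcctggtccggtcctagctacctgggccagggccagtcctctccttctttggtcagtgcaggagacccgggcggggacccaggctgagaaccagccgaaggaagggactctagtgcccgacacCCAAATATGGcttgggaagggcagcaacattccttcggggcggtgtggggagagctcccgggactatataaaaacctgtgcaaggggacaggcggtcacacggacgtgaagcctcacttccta
Actc1: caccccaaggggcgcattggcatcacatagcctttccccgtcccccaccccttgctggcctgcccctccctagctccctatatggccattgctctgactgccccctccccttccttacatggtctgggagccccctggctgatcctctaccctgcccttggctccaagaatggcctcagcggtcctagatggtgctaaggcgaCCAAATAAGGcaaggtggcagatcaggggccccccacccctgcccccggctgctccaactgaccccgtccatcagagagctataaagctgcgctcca
The motif, searched on both strands, occurs in 1.63% of the 32851 promoter entries, and in 5 of the 28 sarcomere genes with an entry, of which 2 were called.

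Of 35 stretch and Z-disc genes 18 rose and 2 fell, and the rises numbered 10 without TAC replicate 3 and 11 without sham replicate 1, and the falls 1 without any one array other than sham replicate 2. Fhl1, a mechanical sensor of the sarcomere, had 12.20, 12.23 and 12.63 on the TAC arrays, against 10.83, 10.74 and 11.00 on the sham arrays (1.50 ± 0.19, adjusted p = 6.26e-06). Xirp2, an actin-binding protein of the intercalated disc, rose by 1.24 ± 0.11, and the actin crosslinker Flnc by 1.06 ± 0.15. Tcap (telethonin), a cap on titin at the Z-disc, fell, with 10.76, 10.63 and 10.46 on the TAC arrays, against 11.53, 11.20 and 11.36 on the sham arrays (−0.75 ± 0.10, adjusted p = 1.77e-05).

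Among signalling genes of hypertrophy, Rcan1, a regulator of calcineurin that calcineurin signalling also induces, had 11.26, 11.12 and 11.69 on the TAC arrays, against 9.50, 9.90 and 9.69 on the sham arrays (1.66 ± 0.18). Uck2, a kinase of pyrimidine salvage, rose by 1.83 ± 0.16. Of 7 class IIa HDAC and MEF2 genes, which form a brake and its target in muscle gene control, 4 fell, among them Hdac4 (−0.60 ± 0.08) and Mef2a (−0.31 ± 0.06). Klf15, a factor that restrains growth and drives metabolic genes in heart, fell (−0.73 ± 0.11), and so did Rgs2, an inhibitor of Gq signalling, with 8.55, 8.10 and 7.94 on the TAC arrays, against 9.37, 8.98 and 9.48 on the sham arrays (−1.08 ± 0.17). None of 15 early-response factors was called.

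Genes of fat burning fell almost throughout. Of 34 genes of fatty acid oxidation 29 fell and 0 rose, against 7.73% of all genes that fell, with a median of −0.44. All 15 genes of the beta-oxidation spiral and all 3 that pass its electrons to the respiratory chain fell. Ech1, which handles unsaturated chains, had 12.03, 11.91 and 11.92 on the TAC arrays, against 12.74, 12.66 and 12.72 on the sham arrays (−0.75 ± 0.06, adjusted p = 5.58e-08). Acaa2, the last enzyme of the spiral, had 12.61, 12.62 and 12.56 on the TAC arrays and 13.21, 13.12 and 13.17 on the sham arrays (−0.57 ± 0.06). For both genes the spread within a group is small beside the gap between the groups. Upstream, the fatty acid transporter Slc27a1 fell to 9.64, 9.48 and 9.61 on the TAC arrays, against 10.81, 10.60 and 10.58 on the sham arrays (−1.08 ± 0.11), and the carnitine carrier Slc25a20 fell by 0.73 on the log2 scale. The 5 genes of the list that were not called were Cd36, Fabp3, Cpt1a, Acot13 and Pdk4, with differences of −0.10, 0.00, −0.32, −0.04 and −0.05 (Pdk4 blocks the use of glucose); these 5 are named after their values were seen.

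The breakdown of branched-chain amino acids, a further mitochondrial fuel route, fell as well. Of 21 genes 19 fell and 0 rose, with a median of −0.48. Ppm1k, the phosphatase that switches on the branched-chain ketoacid dehydrogenase, had 8.96, 9.09 and 9.0 on the TAC arrays, against 10.33, 10.10 and 10.28 on the sham arrays (−1.22 ± 0.11, adjusted p = 6.29e-08). Of the subunits of that complex, Bckdha (−0.81 ± 0.10), Bckdhb (−0.81 ± 0.11) and Dbt (−0.75 ± 0.09) fell. The transaminase of the entry step, Bcat2, fell to 9.67, 9.82 and 9.78 on the TAC arrays, against 10.58, 10.56 and 10.58 on the sham arrays (−0.81 ± 0.09). Among 3 ketone genes 1 rose and 1 fell, and the gene that rose was Bdh1, which interconverts the ketone bodies (0.88 ± 0.19; named after its values were seen).

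Downstream of these routes fewer genes were called and the medians lay nearer to 0, without a test between the lists. In the TCA cycle 13 of 17 genes fell, with a median of −0.25, and in pyruvate oxidation 4 of 10. Pdp2, a phosphatase that activates pyruvate dehydrogenase, had 7.49, 7.53 and 7.42 on the TAC arrays, against 8.57, 8.51 and 8.55 on the sham arrays (−1.06 ± 0.12). Citrate synthase (Cs) fell by 0.35 on the log2 scale. In complex I 19 of 42 genes fell and 0 rose, with a median of −0.19, and this count was 10 without TAC replicate 2 and 12 without sham replicate 1 or sham replicate 3. In complexes III to V 13 of 42 fell and 1 rose, with 8 falls without sham replicate 3 and 0 rises without any one array other than TAC replicate 2, and the ATP synthase gene Atp5k led (−0.53 ± 0.10). Under the other settings tried the falls in complex I numbered 10 to 27, with 0 rises in each.

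Of 25 metabolic regulators 11 fell, 0 rose and 14 were not called. Nuclear receptors made up 8 of the falls, out of 10 in the list, against 1 of 4 coactivators. Ppargc1a, the coactivator of mitochondrial genes, had 10.59, 10.52 and 10.54 on the TAC arrays, against 11.25, 11.25 and 11.30 on the sham arrays (−0.72 ± 0.08, adjusted p = 6.88e-07). Ppara, the receptor that drives fatty acid oxidation genes, had 9.35, 9.36 and 9.44 on the TAC arrays, against 10.07, 10.02 and 10.20 on the sham arrays (−0.71 ± 0.11). Thrb, a thyroid hormone receptor, fell (−0.67 ± 0.09), while Dio2, the enzyme that makes active thyroid hormone inside cells, had 7.46, 7.70 and 7.92 on the TAC arrays, against 6.29, 6.43 and 6.36 on the sham arrays (1.33 ± 0.19, adjusted p = 2.92e-05). Dio2 was listed as an adipocyte marker, and the other 7 markers of that list were not called.

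Glycolysis did not move as a group. Of 27 genes of glucose uptake and glycolysis 3 rose and 4 fell, with a median of 0.00, and 1 rose without TAC replicate 3 or sham replicate 1. Pfkp, the platelet form of phosphofructokinase, had 10.19, 10.25 and 10.31 on the TAC arrays, against 8.81, 9.06 and 8.89 on the sham arrays (1.33 ± 0.14), and Pfkm, the muscle form, had 11.89, 11.93 and 11.86 on the TAC arrays, against 12.32, 12.27 and 12.27 on the sham arrays (−0.39 ± 0.08). The insulin-regulated transporter Slc2a4 fell (−0.61 ± 0.10), as did Slc2a12 (−0.91 ± 0.13). In the glycogen list 7 of 19 genes fell and 2 rose, and the count of falls was 4 without sham replicate 1. Phkg1, a catalytic subunit of phosphorylase kinase, fell furthest, with 6.80, 6.46 and 6.68 on the TAC arrays, against 8.38, 8.16 and 8.39 on the sham arrays (−1.66 ± 0.12, adjusted p = 4.13e-09).

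**Figure D3:**
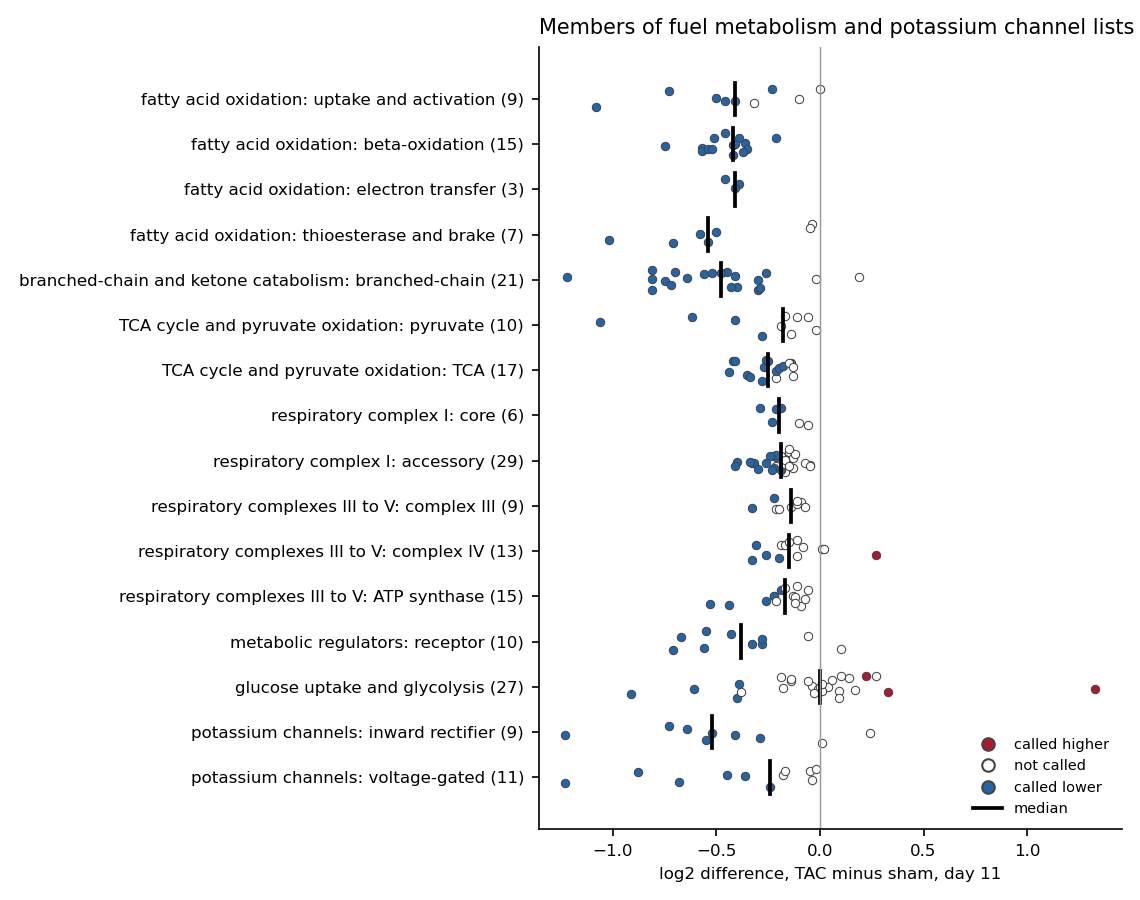
Log2 difference, TAC minus sham at day 11 (horizontal axis), of each member of fuel metabolism and potassium channel lists; the number of members is in brackets, filled points were called and bars are medians. All 15 beta-oxidation genes fell, and the medians of the respiratory complexes lie closer to 0 than those of fat and branched-chain catabolism.

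Genes of the electrical system fell mainly in the potassium channels, which end the action potential and set the resting voltage. Of 35 genes 17 fell and 0 rose, with a median of −0.18. Inward rectifiers fell in 7 of 9. Kcnj3 had 8.72, 8.66 and 8.46 on the TAC arrays, against 9.96, 9.68 and 9.88 on the sham arrays (−1.23 ± 0.12, adjusted p = 3.55e-07), and its partner in the acetylcholine-gated channel, Kcnj5, had 8.88, 8.86 and 8.92 on the TAC arrays, against 9.66, 9.53 and 9.66 on the sham arrays (−0.73 ± 0.07). Kcnj2, the main channel of the resting current, fell (−0.64 ± 0.10), as did Kcnj11 (−0.52 ± 0.07), the pore of the ATP-sensitive channel. Among voltage-gated genes 6 of 11 fell, with Kcnv2 at −1.23 ± 0.12 and Kcnh2 at −0.68 ± 0.08. None of 7 sodium channel genes was called, and the pump regulator Fxyd5 rose (0.98 ± 0.12).

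Of 31 calcium cycling genes 9 fell and 1 rose. Hrc, a calcium buffer of the sarcoplasmic reticulum, had 10.61, 10.65 and 10.58 on the TAC arrays, against 11.28, 11.24 and 11.24 on the sham arrays (−0.64 ± 0.09), and Cacna1c, the L-type channel pore, fell (−0.46 ± 0.08). Of 20 intercalated disc genes, which join muscle cells end to end, 7 fell and 3 rose. The falls numbered 3 without TAC replicate 1 or sham replicate 1, and the rises 0 without TAC replicate 3. The desmosome genes Dsg2 (−0.68 ± 0.08) and Dsc2 (−0.55 ± 0.09) fell, and so did Ctnna3 (−0.52 ± 0.10), a catenin. The rises were small, with Gjc1, a connexin, at 0.33, Pkp2 at 0.20 and Ctnnb1 at 0.19. The call of Gjc1 was lost without TAC replicate 3 (adjusted p = 0.0591), that of Ctnnb1 without TAC replicate 2, TAC replicate 3, sham replicate 1 or sham replicate 3 (up to 0.14) and that of Pkp2 without any one array other than TAC replicate 1 (up to 0.138). Of the neurohormonal genes Ace, which makes angiotensin II, had 10.39, 10.41 and 10.54 on the TAC arrays, against 9.44, 9.43 and 9.54 on the sham arrays (0.98 ± 0.09, adjusted p = 6.29e-08). The angiotensin receptor gene Agtr1a fell (−0.64 ± 0.10), as did the adrenergic receptor gene Adra1b (−0.59 ± 0.08) and Maob (−1.03 ± 0.12), which breaks down amines.

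Clock genes fell on the repressor and output side. Of 17 genes 8 fell and 0 rose, with a median of −0.41. Ciart, a repressor of the clock, had 8.51, 8.60 and 8.13 on the TAC arrays, against 9.45, 9.56 and 9.92 on the sham arrays (−1.23 ± 0.24, adjusted p = 0.000691). Per2 fell by 0.59, Per3 by 0.56 and Cry2 by 0.64 on the log2 scale, and of the output factors Hlf fell by 0.88 and Tef by 0.48. Dbp, a further output factor, was −0.70 ± 0.21 with adjusted p = 0.022, a call lost without TAC replicate 1, TAC replicate 3, sham replicate 1 or sham replicate 3. The activators Arntl and Clock were not called (0.47 and 0.20; both named after their values were seen). The labels do not give the time of day at which hearts were taken, and whether it differed between the groups was not tested.

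Promoters of 2 of the fallen clock genes are shown because they hold the elements through which the clock acts on its own genes, the E-box CACGTG and the D-box TTATGTAA. Both run from 250 bases before to 50 bases after the gene's start (RefSeq, GRCm38.p6), 5′ to 3′ on the gene's strand, with the elements in capitals. Ciart lies at chr3:95882179-95882478 on the minus strand and holds 3 E-boxes, starting 116, 58 and 44 bases before the gene's start. Per3 lies at chr4:151044616-151044915 on the minus strand and holds 2 D-boxes, 205 and 158 bases before.
Ciart: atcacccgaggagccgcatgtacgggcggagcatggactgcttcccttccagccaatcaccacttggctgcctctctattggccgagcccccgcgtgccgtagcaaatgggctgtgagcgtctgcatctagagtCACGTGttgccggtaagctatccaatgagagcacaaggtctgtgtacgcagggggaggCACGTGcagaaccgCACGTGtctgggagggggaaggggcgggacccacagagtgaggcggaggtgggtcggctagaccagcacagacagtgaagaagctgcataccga
Per3: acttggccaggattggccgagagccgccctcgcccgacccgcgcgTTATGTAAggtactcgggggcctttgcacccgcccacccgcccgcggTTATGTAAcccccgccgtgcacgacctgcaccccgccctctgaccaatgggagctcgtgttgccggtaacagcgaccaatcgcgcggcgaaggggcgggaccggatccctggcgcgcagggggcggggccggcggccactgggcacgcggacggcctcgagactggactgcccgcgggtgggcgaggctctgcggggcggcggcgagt
An E-box stands in 7.15% of all promoter entries and a D-box in 0.938%, on either strand. Of 15 clock genes with an entry 5 held an E-box and 2 of these were called. Per3, Cry2, Nr1d2, Dbp and Hlf held no E-box in the stretch searched and were called too. A D-box stood in 1 of the 15, Per3.

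MicroRNA genes gave 1 call among 39. Mir208a, the gene of a heart-specific miRNA that lies within an intron of Myh6, had 7.37, 7.23 and 7.42 on the TAC arrays, against 8.20, 8.06 and 8.44 on the sham arrays (−0.90 ± 0.23, adjusted p = 0.00778). Mir499, from an intron of Myh7b, was −0.33 ± 0.15 (adjusted p = 0.156), with levels near background. The array reads the gene region and not the mature miRNA, and a signal from unspliced host transcripts was not tested. Both mature sequences are shown because the pair regulates slow muscle genes and their seeds (bases 2 to 8, in capitals) differ by 1 base. They are RefSeq's, 5′ to 3′, from chr14:54949072-54949093 on the minus strand and chr2:155622893-155622913 on the plus strand of GRCm38.p6.
mmu-miR-208a-3p: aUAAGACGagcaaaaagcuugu
mmu-miR-499-5p: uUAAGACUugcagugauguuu

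Day 11 was then set against days 3 and 28 by testing the difference between TAC effects. Against day 3, 70 genes differed (0.351% of all genes), 31 with a higher effect at day 11 (0.155%) and 39 with a lower one (0.196%). Of the 70, 13 kept the call without each of the 6 day 11 arrays. The 7 of these with a higher effect were Mmp2, Nid1, Lamc1, Adamtsl2, C1qtnf1, Pcdh17 and Rnf144a, of which 4 code for matrix proteins or their enzymes. Mmp2 differed by 1.29 ± 0.22 (adjusted p = 0.0158), with TAC effects of −0.07 at day 3, 1.22 at day 11 and 1.35 at day 28. At day 3 Mmp2 had 10.93, 10.34 and 10.77 on the TAC arrays, against 10.76, 10.80 and 10.68 on the sham arrays, and the groups overlapped. Nid1 (nidogen), which links laminin to collagen IV, had effects of 0.03, 0.71 and 0.53 at days 3, 11 and 28, and Lamc1, a laminin chain, 0.26, 0.73 and 0.28. Adamtsl2 had 0.28, 1.24 and 1.27. These 4 genes were picked for a higher effect at day 11 than at day 3. Their day 3 effect lay below that of day 28, for Lamc1 only just (0.26 against 0.28). The choice itself favours low day 3 values, so this order adds no support.

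The 6 kept genes with a lower effect at day 11 than at day 3 were Ppargc1a, Bcat2, Phkg1, Manf, Sdf2l1 and Fam174b. Ppargc1a had effects of −0.01, −0.72 and −0.29 at days 3, 11 and 28, so that at day 3 the TAC arrays (11.15, 10.93 and 11.23) and the sham arrays (11.21, 11.03 and 11.10) overlapped. Bcat2 had −0.10, −0.81 and −0.30, and Phkg1 −0.69, −1.66 and −1.15. For Ppargc1a, Bcat2 and Phkg1 the difference between days 11 and 28 was not called. The fatty acid oxidation list as a whole had 21 falls at day 3, 29 at day 11 and 25 at day 28, where 3.33%, 7.73% and 6.98% of all genes fell, with medians of −0.32, −0.44 and −0.33.

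Against day 28, 29 genes differed (0.145%), 16 higher (0.0803%) and 13 lower (0.0652%) at day 11. Centring each array on its median over all probe sets gave 2 higher and 7 lower, on the median of the genes tested it gave 5 and 8, and without TAC replicate 3 or sham replicate 1 the higher count was 0. The genes with a higher effect at day 11 included both collagen IV chains, the Z-disc gene Flnc and Uck2. Col4a1 had effects of 0.40, 0.95 and 0.26 at days 3, 11 and 28 (difference from day 28 0.68 ± 0.11, adjusted p = 0.0147, and up to 0.0821 without TAC replicate 3 or sham replicate 1, where the call was lost). Flnc had 1.04, 1.06 and −0.07 and Uck2 1.44, 1.83 and 0.69. The calls of Flnc (adjusted p = 0.0261) and Uck2 (adjusted p = 0.0349) against day 28 were lost without any one array other than TAC replicate 1, with adjusted p up to 0.111 and 0.12.

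The 4 genes that kept a call against day 28 without each day 11 array were Trmt112, Cuta, Mrps21 and Snord57, and for all 4 the TAC effect was lower at day 11. Mrps21, a mitochondrial ribosome protein, had 10.93, 10.24 and 11.00 on the TAC arrays at day 11, against 11.21, 11.50 and 11.86 on the sham arrays. At day 28 it had 11.84, 11.82 and 11.92 on the TAC arrays, against 10.93, 10.92 and 11.20 on the sham arrays, so the order of the groups turned between the days (difference −1.64 ± 0.26, adjusted p = 0.0106). Trmt112, a partner of methyltransferases, had effects of −0.46 at day 11 and 0.46 at day 28, and the small nucleolar RNA Snord57 −0.39 and 1.13. Of these, Snord57 was not called at day 11 itself.

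**Figure D4:**
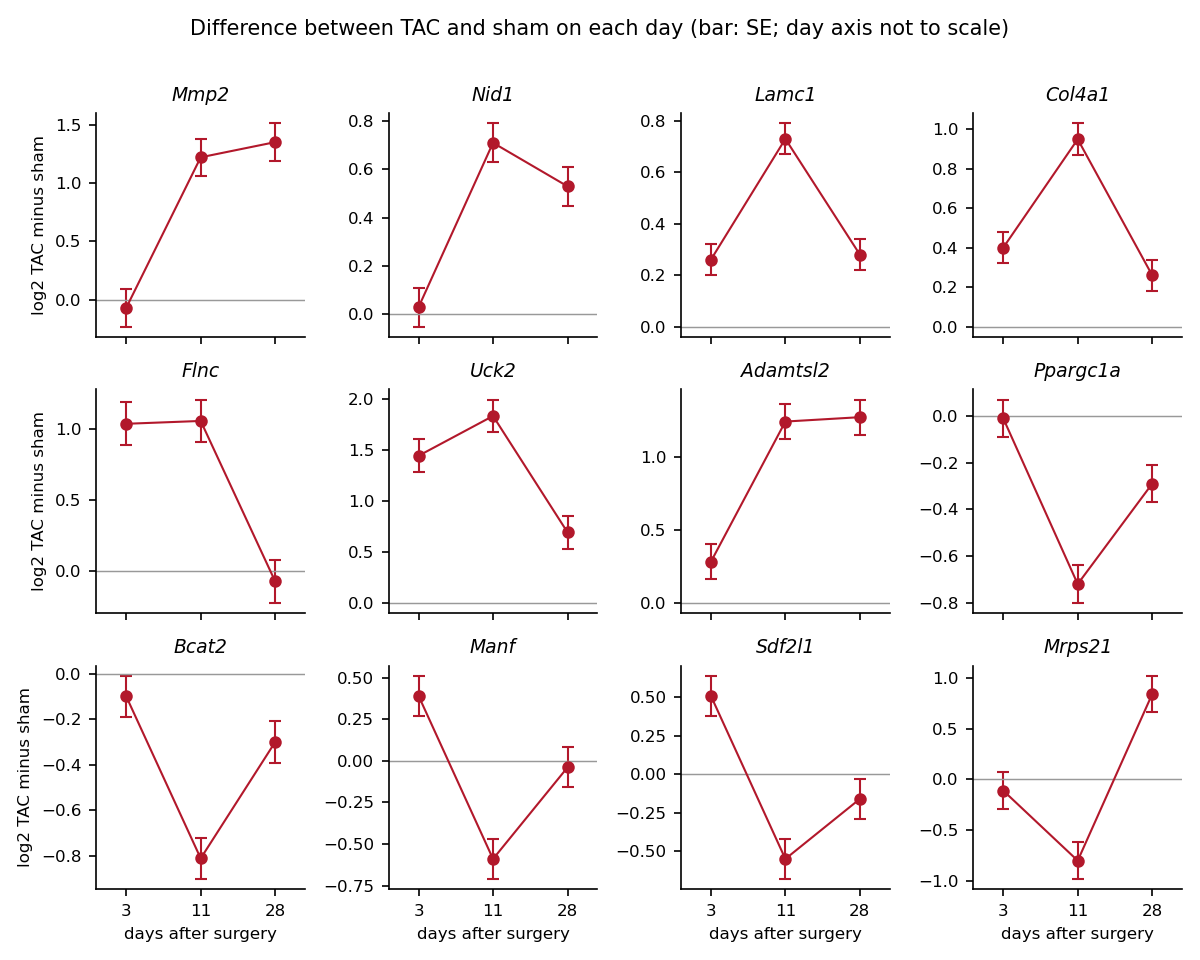
Log2 difference between TAC and sham (vertical axis, scaled for each gene) at days 3, 11 and 28 for 12 genes, with SE bars (n = 3 arrays per group). Mmp2 and Nid1 lie near 0 at day 3 and above 0 at days 11 and 28, and Lamc1 and Col4a1 peak at day 11. Ppargc1a, Bcat2, Manf and Sdf2l1 are lowest at day 11, although their difference from day 28 was not called.

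Protein folding genes include several whose TAC effect had opposite signs at days 3 and 11. Chaperones of the endoplasmic reticulum help new membrane and secreted proteins to fold, and cells raise them through Xbp1 and Atf6 when unfolded protein builds up. At day 11, 6 of 14 chaperone genes fell and 0 rose, and 7 of 14 had a lower TAC effect than at day 3, a count of 2 to 5 with single day 11 arrays left out. Manf, a small chaperone, had 7.91, 7.90 and 7.96 on the TAC arrays at day 11, against 8.31, 8.73 and 8.49 on the sham arrays (−0.59 ± 0.12, adjusted p = 0.000883). At day 3 the order was the other way, with 8.09, 8.57 and 8.17 on the TAC arrays, against 7.82, 8.03 and 7.81 on the sham arrays (effect 0.39). The difference between these effects was −0.98 ± 0.16 (adjusted p = 0.0158). Sdf2l1, a partner of the chaperone Hspa5, had 8.22, 8.29 and 8.17 on the TAC arrays at day 11, against 8.56, 8.99 and 8.77 on the sham arrays, and an effect of 0.51 at day 3 (difference −1.06 ± 0.19, adjusted p = 0.0158).

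Few genes set the sham group of day 11 apart from the other sham groups, and days 3 and 28 were not compared with each other. Comparing sham day 11 with the mean of sham days 3 and 28 called 3 genes (0.0150%), Manf, Creld2 and Xbp1, all higher at day 11. At an unadjusted p under 0.05 there were 823 genes of 19937. Xbp1, the factor that raises folding genes, had 10.62, 10.76 and 10.80 on the day 11 sham arrays, against 10.33, 10.31 and 10.34 at day 3 and 10.24, 10.30 and 10.36 at day 28. Its TAC effect at day 11 was −0.23 ± 0.07 (adjusted p = 0.0281), a call lost without any one array other than sham replicate 1 (adjusted p up to 0.13). Creld2, an induced folding factor, had 9.11, 9.19 and 9.35 on the day 11 sham arrays, against 8.73, 8.61 and 8.63 and 8.72, 8.65 and 8.66. Without sham replicate 2 or sham replicate 3 the count of such genes was 0. The mean over the 14 chaperones was 9.91 to 9.95 on the TAC arrays of day 11, against 10.06 to 10.23 on the sham arrays of day 11, and the sham arrays of day 3 had 9.80 to 9.86 and those of day 28 9.82 to 9.98. The lowest day 11 sham mean thus lies above every sham mean of the other days, by a small margin over day 28. Set against the mean of the 3 sham groups in place of the day 11 sham arrays, Manf (−0.18, adjusted p = 0.226) and Sdf2l1 (−0.12, adjusted p = 0.58) were no longer called, Creld2 and Xbp1 turned to 0.04, and Hspa5 (−0.27, adjusted p = 0.00241) and Herpud1 (−0.93) stayed called. Over the other settings tried, the falls among chaperones numbered 2 to 8 and the rises 0 to 2. Herpud1, which helps to clear unfolded proteins, fell at each day, with 10.97, 11.03 and 10.74 on the TAC arrays at day 11, against 12.08, 11.94 and 11.86 on the sham arrays (−1.05 ± 0.14), and effects of −0.50 at day 3 and −0.41 at day 28.

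**Figure D5:**
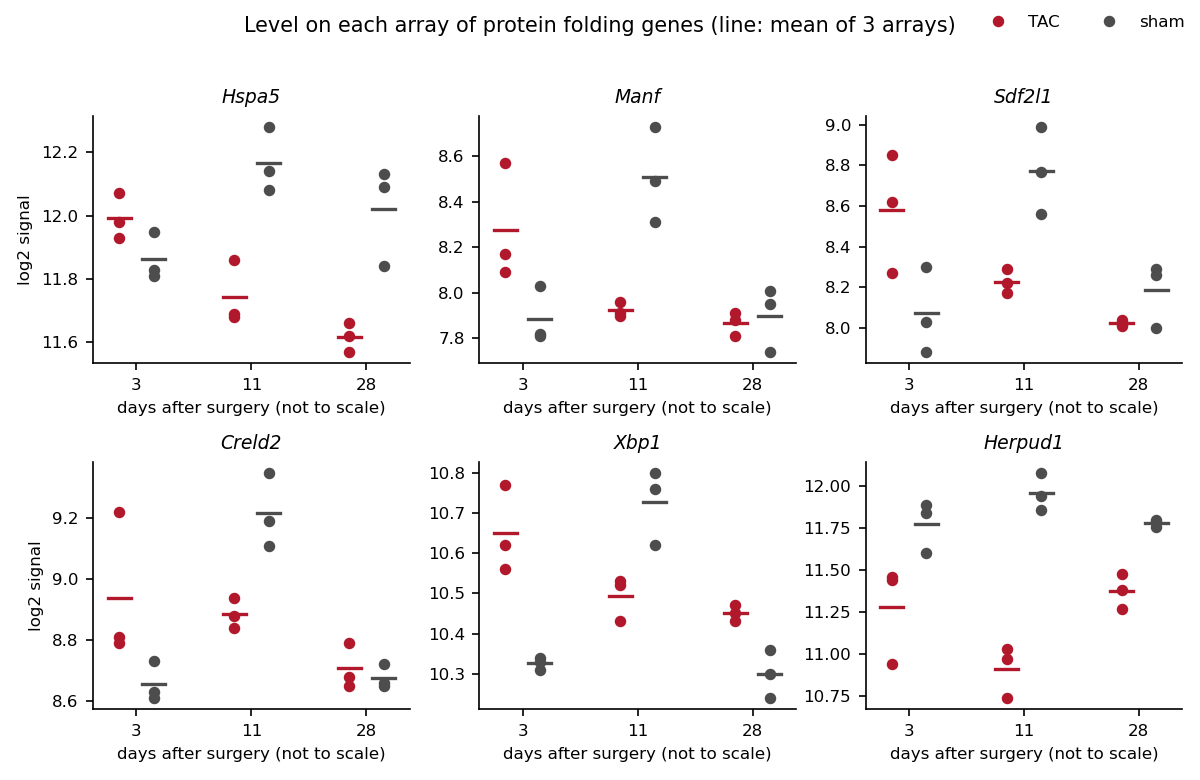
Log2 signal (vertical axis, scaled for each gene) of 6 protein folding genes on each vehicle array at days 3, 11 and 28, TAC left of sham at each day, with group means (n = 3). The day 11 sham arrays are the highest sham arrays for Manf, Sdf2l1, Creld2 and Xbp1, and Herpud1 averages lower in TAC at each day.

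Promoters of 3 genes that fell are shown because they hold the endoplasmic reticulum stress element. The element was searched on both strands as ERSE, which is CCAAT, any 9 bases and CCACG, and as ERSE-II, which is ATTGG, any base and CCACG. Each stretch runs from 250 bases before to 50 bases after the gene's start (RefSeq, GRCm38.p6), 5′ to 3′ on the gene's plus strand, with the element in capitals. Hspa5, the main chaperone of the reticulum, lies at chr2:34771840-34772139, with the ERSE 65 bases before its start, and Creld2 at chr15:88819396-88819695, with the ERSE in the opposite orientation 126 bases before. Herpud1 lies at chr8:94386179-94386478, with an ERSE-II 52 bases before.
Hspa5: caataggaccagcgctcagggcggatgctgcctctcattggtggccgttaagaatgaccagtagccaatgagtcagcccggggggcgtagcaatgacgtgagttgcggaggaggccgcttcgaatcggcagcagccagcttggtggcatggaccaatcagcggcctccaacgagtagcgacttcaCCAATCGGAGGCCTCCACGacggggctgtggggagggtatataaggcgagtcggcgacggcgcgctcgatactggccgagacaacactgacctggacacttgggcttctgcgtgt
Creld2: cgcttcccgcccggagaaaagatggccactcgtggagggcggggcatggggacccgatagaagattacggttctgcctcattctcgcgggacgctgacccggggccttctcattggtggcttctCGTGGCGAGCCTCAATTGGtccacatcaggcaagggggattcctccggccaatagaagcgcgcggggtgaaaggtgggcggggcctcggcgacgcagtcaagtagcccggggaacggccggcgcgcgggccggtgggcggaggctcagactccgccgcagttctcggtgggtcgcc
Herpud1: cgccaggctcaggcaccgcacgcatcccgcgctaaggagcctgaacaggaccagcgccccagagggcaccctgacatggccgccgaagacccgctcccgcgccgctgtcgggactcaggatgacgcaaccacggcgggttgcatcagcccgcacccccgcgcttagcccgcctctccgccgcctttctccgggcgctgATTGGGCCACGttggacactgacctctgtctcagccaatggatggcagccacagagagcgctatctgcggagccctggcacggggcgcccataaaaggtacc
An ERSE stands in 0.119% of the 32851 promoter entries and an ERSE-II in 0.0365%. Of 12 chaperone genes with an entry 7 held an ERSE, and 2 of these 7, Hspa5 and Creld2, fell at day 11. Of those with an entry and no ERSE, Dnajb9 (−0.71) and Sdf2l1 (−0.55) fell too. Pdia3, Pdia4 and Dnajb11, which holds an ERSE-II, were not called and are named after their values were seen. Creld2 was −0.33 ± 0.09 (adjusted p = 0.0128), a call lost without TAC replicate 2 or sham replicate 3 (adjusted p up to 0.09). Hspa5 had 11.69, 11.86 and 11.68 on the TAC arrays at day 11, against 12.08, 12.28 and 12.14 on the sham arrays (−0.42 ± 0.08, adjusted p = 0.000411), while Hsp90b1 and Calr, which hold the element too, were not called (−0.09 and −0.12; both named after their values were seen). Manf has no promoter entry in the table used.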

How the data were processed

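Heart RNA was hybridised to 27 Affymetrix arrays after labelling with the Ambion WT Expression kit, per the labels' protocols. The deposited table holds log2 values per probe set for each array. Summarisation and normalization are not given in the sources used here, and the submitters' processing notes name limma without a version. Of 34760 probe sets 21640 had 1 gene symbol, 1321 had several and 11799 had none. Those with 1 symbol were kept, and the one with the highest mean over the 27 arrays stood for its gene. Groups came from the titles. A model with 9 groups was fitted to all 27 arrays with limma 3.58.1 in R 4.3.3 (lmFit and eBayes, 18 residual and 4.9 prior degrees of freedom), and p-values were adjusted over 19937 genes by the Benjamini-Hochberg method. Contrasts were TAC minus sham at day 11, the difference of that effect from day 3 and from day 28, and sham day 11 against the mean of the other sham groups. The fit was tested on simulated data with 200 changed genes.

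Genes named were drawn from the 12 largest changes in each direction among called genes whose groups do not overlap, every member of a list of up to 12 genes, for longer lists the 8 with the smallest p and any called with at least a 2-fold change, and the 8 with the smallest p in each direction of the other contrasts. Not every gene these rules allow is named, and exceptions to them are stated. Of 1362 names in the lists 1255 matched a gene of the table. Members and lists were chosen with earlier results of these data known. Alternatives were another normalization, 2 centrings, a filter on dim genes, probe set means, trend and robust options, array weights, a replicate block, fewer arrays, pooled sham groups and single arrays left out. Promoter and miRNA sequences are RefSeq's (GRCm38.p6). Files name no scan dates, so batches could not be examined.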

Additional observations from a re-analysis of the deposited data

Results flagged for a closer look

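The results here are those of genes named in the text whose TAC effect at day 11 differed from that at day 3 or day 28 by the test of the difference (limma, adjusted p under 0.05). Each value is the day 11 log2 difference between TAC and sham minus that of the other day. Of all genes called, 13 of 70 against day 3 and 4 of 29 against day 28 were kept without each of the 6 day 11 arrays.

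Against day 3 the following genes had higher effects at day 11. The calls kept without each array were those of Mmp2 (1.29), Adamtsl2 (0.96), Pcdh17 (0.70), Nid1 (0.68), Rnf144a (0.68), C1qtnf1 (0.57) and Lamc1 (0.47). Pi16 (0.89) lost the call without TAC replicate 3 or sham replicate 1, with adjusted p up to 0.0794. Col4a1 (0.55) lost it without TAC replicate 1, TAC replicate 3, sham replicate 1 or sham replicate 3 (up to 0.113). Itgbl1 (1.55) and Sparc (0.52) lost it without any one array other than sham replicate 2 (up to 0.0613 and 0.167). Mfap4 (1.54), Cd34 (0.63), Ace (0.59) and Timp2 (0.46) lost it whichever array was left out (up to 0.128, 0.145, 0.116 and 0.125).

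The following genes had lower effects at day 11 than at day 3. The calls kept without each array were those of Sdf2l1 (−1.06), Manf (−0.98), Phkg1 (−0.97), Bcat2 (−0.72), Ppargc1a (−0.70) and Fam174b (−0.61). Xbp1 (−0.55) lost the call without TAC replicate 2 or sham replicate 3, with adjusted p up to 0.0631. Hspa5 (−0.55) lost it without TAC replicate 1, TAC replicate 3, sham replicate 2 or sham replicate 3 (up to 0.0862). Ech1 (−0.48) and Gstm2 (−0.55) lost it without TAC replicate 2, TAC replicate 3, sham replicate 1 or sham replicate 3 (up to 0.0737 and 0.0827). Kcnj3 (−0.79) and Ppm1k (−0.72) lost it without any one array other than sham replicate 2 (up to 0.145 and 0.131). Angpt1 (−1.20), Ppara (−0.67), Creld2 (−0.61), Kcnh2 (−0.56) and Calr (−0.40) lost it whichever array was left out (up to 0.128, 0.136, 0.119, 0.138 and 0.125).

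Against day 28, the calls of Mrps21 (−1.64), Snord57 (−1.51), Trmt112 (−0.92) and Cuta (−0.69) were kept without each array. Ech1 (−0.45), Flnc (1.13), Uck2 (1.14) and Col4a2 (0.72) lost the call without any one array other than TAC replicate 1, with adjusted p up to 0.137, 0.111, 0.12 and 0.0943. Col4a1 (0.68) lost it without TAC replicate 3 or sham replicate 1 (up to 0.0821), and Lamc1 (0.45) without TAC replicate 2, TAC replicate 3, sham replicate 1 or sham replicate 2 (up to 0.093).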

How the results depend on the processing

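The count of genes called between TAC and sham at day 11 (3097) was 2846 to 4073 under every planned setting that kept all 6 arrays except array weights, which gave 5974, and 2176 to 2655 with single arrays left out. Of the 3097 calls 1769 (57.1%) held without each of the 6 arrays. Centring arrays on the median of the genes tested, an alternative added after seeing the data, gave 1246 higher and 1733 lower genes. Against day 3 (70 genes) the count was 108 after quantile normalization, 156 with the dimmest genes left out, 141 with the trend and robust options, 1031 with array weights and 16 to 41 with single arrays left out. Against day 28 (29 genes) it was 79, 103, 91 and 609 under the same 4 settings, 9 (2 higher, 7 lower) with arrays centred on their median, 13 (5 higher, 8 lower) with arrays centred on the median of the genes tested, and 4 to 41 with single arrays left out. The sham count (3 genes) was 142 with array weights and 0 to 4 with single arrays left out. The weights were 3.15 for TAC replicate 1, 2.726 for sham replicate 1 and 0.695 to 0.867 for the other 4 day 11 arrays, and why they differ was not tested. Against the mean of the 3 sham groups Creld2 and Xbp1 stood at 0.04 each in place of a fall.

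With the replicate number as a block the counts were 2883 at day 11, 27 against day 3, 2 against day 28 and 4 for sham. Of the 4 genes that kept their call against day 28 with single arrays left out, Trmt112 and Snord57 kept it with the block (adjusted p = 0.0454 for both) and Mrps21 (adjusted p = 0.0632) and Cuta (adjusted p = 0.067) lost it. The 13 such genes against day 3 kept theirs (adjusted p up to 0.0458). Deviations of the same-numbered TAC and sham arrays correlated at 0.006, 0.433 and 0.5. The first pair does not reach the 0.1 asked of a pairing, and the numbers are not taken to pair the samples. TAC replicate 2 with sham replicate 3 gave −0.462, and TAC replicate 3 with sham replicate 2 gave −0.47. Deviations from a group mean cancel within the group, so these negative values largely follow from the others and are no further observation. Replicates 2 and 3 thus parted in the same direction in both groups, and why they did was not tested. In simulated data of the same size with 200 changed genes, 14% of 1.2-fold, 72% of 1.5-fold and 96% of 2-fold changes were called. The real comparison called 3097 genes, 469 of them with changes under 1.2-fold. Adjusted p depends on how many genes change, so the simulated shares do not carry over to the real comparison. Dim genes have no detection call, and their differences may be understated. The same may hold for genes near the highest signal (14.21), such as Actc1.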

Other observations

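Complement genes rose in 10 of 29 and fell in 1 at day 11, with 6 rises without TAC replicate 1 or sham replicate 3. The 3 chains of C1q, which starts the classical pathway, rose together: C1qa by 0.54 ± 0.12, C1qb by 0.86 ± 0.12 and C1qc by 0.60 ± 0.13. The complement receptor Vsig4 had 7.31, 7.62 and 7.80 on the TAC arrays, against 6.29, 6.53 and 6.80 on the sham arrays (1.04 ± 0.19), and the gene that fell was Cd59a (−0.42 ± 0.09), which protects cells from the membrane attack complex. Macrophages are a known source of C1q, and all 3 chains also stand in the macrophage marker list, so the complement and macrophage counts overlap.

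Redox genes split, with 6 of 27 higher and 6 lower, and 3 higher without TAC replicate 1. The hydrogen peroxide-producing oxidase Nox4 had 7.66, 7.31 and 7.24 on the TAC arrays, against 6.27, 6.18 and 6.19 on the sham arrays (1.19 ± 0.30, adjusted p = 0.00676). Its TAC effects at days 3, 11 and 28 were 0.32, 1.19 and 2.56, but its day 11 effect was not called as different from that of day 3 or day 28. The glutathione transferases Gstm1 (−0.63 ± 0.08) and Gstm2 (−0.55 ± 0.08) fell, as did the mitochondrial superoxide dismutase Sod2 (−0.23 ± 0.06). Among lipid droplet genes 8 of 22 fell and 0 rose, with 5 without TAC replicate 3 or sham replicate 1. The triglyceride lipase Pnpla2 had 10.82, 10.81 and 10.71 on the TAC arrays, against 11.35, 11.43 and 11.43 on the sham arrays (−0.63 ± 0.15), and Dgat2, which makes triglyceride, fell as well (−0.65 ± 0.11). Of 30 angiogenic signalling genes 4 rose and 2 fell. The falls were Angpt1 and Vegfb (−0.31 ± 0.07), both ligands, and Nrp2, a coreceptor for ligands of the VEGF family, rose (0.66 ± 0.10).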
